A study of Mus musculus with 8 samples.

Results

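Transcripts of 10 genes that mark neutrophils were followed in 8 tumours grown from TRAMP-C2 cells, a mouse prostate adenocarcinoma line, in the dorsolateral prostate of immunocompetent C57BL/6 males, the strain of origin of the line. The genes were chosen by name as known neutrophil genes, with earlier results of these data known. All 10 were found among the 24028 genes of the deposited tables. 4 tumours came from aged hosts (20 to 24 months old; tumours 46, 47, 50 and 51) and 4 from young hosts (4 months old; tumours 36, 37, 40 and 43), the numbers being those the labels give the mice. The line was injected into 19 aged and 20 young hosts, with harvest 30 to 45 days afterwards. How the sequenced tumours were picked, and the day, weight and batch of each, is information not given in the sources used here. The comparison asks whether the neutrophil genes differ when the same line grows in an aged rather than a young prostate. The libraries were of whole tumour RNA, so fewer neutrophils and less RNA per neutrophil cannot be told apart.

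Neutrophils are short-lived granulocytes that mature in the bone marrow under G-CSF, enter tissue along gradients of CXCR2-binding chemokines, and carry their antimicrobial proteins in granules that are filled in a fixed order during maturation. Genes of the specific granules, such as Ltf, Ngp and Camp, are transcribed mainly in marrow precursors, while S100a8, S100a9, Csf3r, Il1r2, Trem1 and Retnlg remain transcribed in mature cells. In tumours, neutrophils have been linked both to killing of tumour cells and to suppression of T cells. Several of these genes are also used elsewhere, as S100a8, S100a9, Csf3r, Trem1 and Clec4d are transcribed in monocytes or macrophages and Ltf in glandular epithelium.

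The libraries held 27.1 to 35.7 M fragments, and 3 fragments correspond to 0.084 to 0.111 CPM, the fragment count of a gene scaled to the size of its library. That limit covers counting error alone. Per kilobase of transcript, as the deposited FPKM values give it, the median level over the 8 tumours was 22.2 FPKM for S100a8, 20.7 for S100a9, 9.75 for Clec4d, 5.97 for Csf3r, 5.43 for Il1r2, 1.83 for Ltf, 1.24 for Retnlg and 1.02 for Trem1. Camp, at 0.0906 FPKM, and Ngp, at 0.0458 FPKM, had medians of 0.0543 and 0.0531 CPM, both below the limit of 3 fragments. Among other neutrophil markers, the chemokine receptor gene Cxcr2 stood at 20.8 to 36.9 CPM in aged, against 13.6 to 26.1 CPM in young tumours. Of the azurophil granule genes of promyelocytes, Prtn3 had 9 to 24 fragments per aged tumour and 1 to 13 per young tumour. Mpo had 2 to 7 fragments per aged tumour and 2 to 15 per young tumour, Elane had at most 2 in any tumour, and Ms4a3 had 0 in all 8. Ly6g was not found by symbol among the deposited genes and so was not analysed here.

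Aged tumours had higher fitted levels than young tumours for 7 of the 8 genes that could be tested, but no difference passed the test against the spread between tumours. The log2 fold changes of aged over young tumours ran from -0.30 for Csf3r to 2.50 for Ltf, with a median of 0.63, against a median of 0.03 over all 14575 genes tested, of which 55.3% had a fold change above 0. By edgeR's quasi-likelihood test with Benjamini-Hochberg adjustment, 0 of the 8 passed a threshold of 0.05 (adjusted p = 0.92 to 0.97), and 0 passed by DESeq2 or limma voom. Among all genes tested, edgeR called 0%, DESeq2 called 0.295% and voom 0.0617%. At an unadjusted p of 0.05, 1 of the 8 (Retnlg, higher in aged tumours) lay below the threshold by edgeR, where 4.99% of all genes did, 2.34% higher and 2.66% lower in aged tumours. By DESeq2 that count was 1 of 8, against 6.02% of all genes, and by voom 2 of 8, against 12.1%. A log2 fold change of at least 1 was fitted for 3 of the 8 and for 2.81% of all genes. The CPM of the groups overlapped for all 8, while they did not for 3.4% of all genes tested (1.45% higher and 1.95% lower in aged tumours). The median of 0.63 was 0.11 without aged tumour 47, 0.36 without young tumour 43 and 0.99 by voom.

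**Figure D1:**
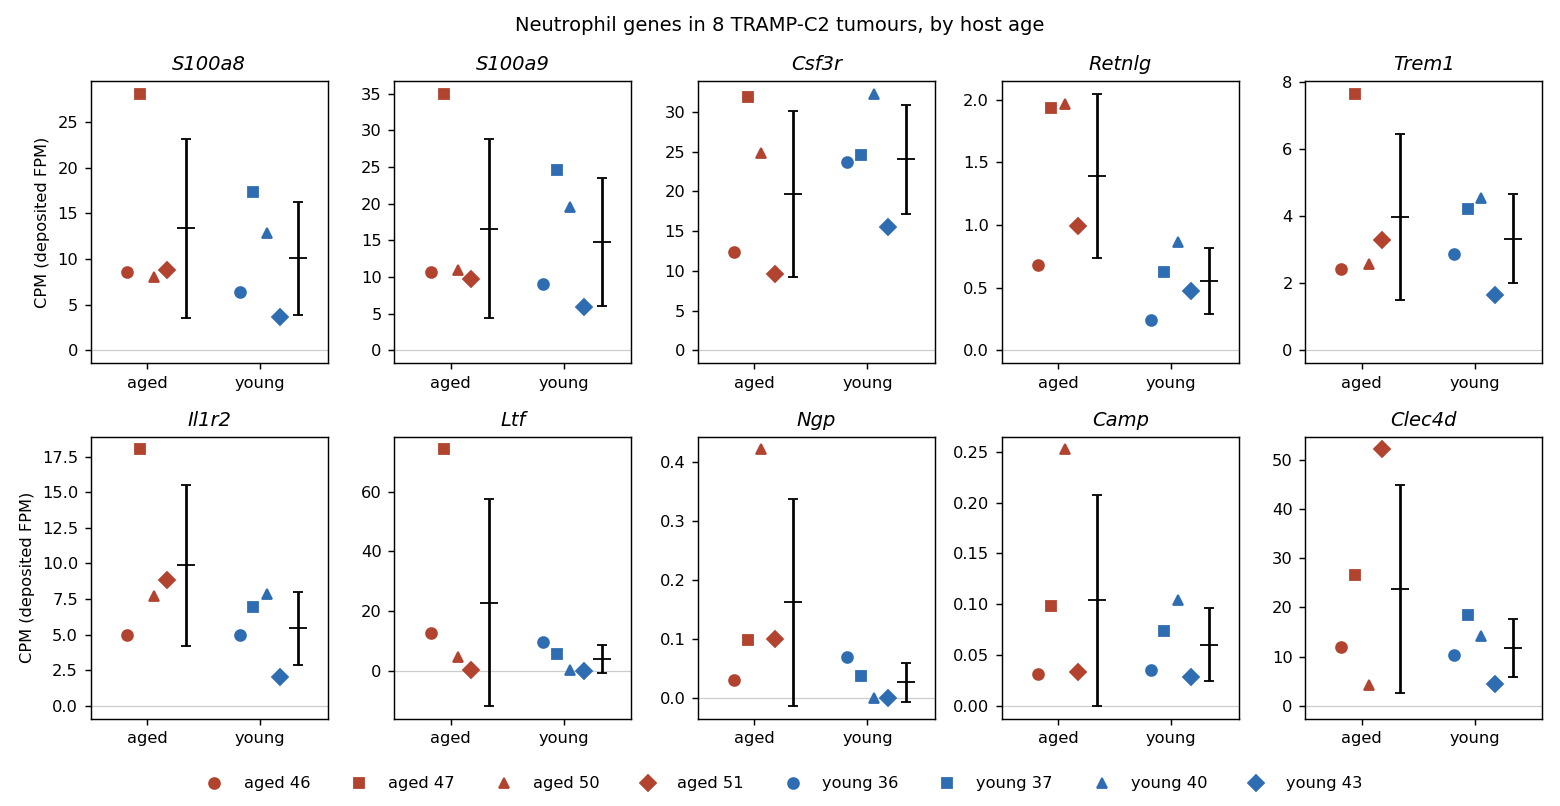
CPM of each of the 10 neutrophil genes in every tumour, with aged tumours (red) left of young tumours (blue) and the mean and SD of each group (n = 4) as a black bar. Aged 47 was the highest tumour for S100a8, S100a9, Trem1, Il1r2 and Ltf, Clec4d was highest in aged 51, and Ngp and Camp stayed below 0.5 CPM throughout.

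1 aged tumour stood above, and 1 young tumour below, most others. Of the 8 tested genes, 5 were highest in aged 47, which was the highest tumour for 6.81% of all genes tested, and the other 3 had it in second place. Of those 3, Clec4d was highest in aged 51, Retnlg in aged 50 and Csf3r in young 40, which were the highest tumours for 18.8%, 22.7% and 8.86% of all genes. Young 43 was lowest for 5 of the 8, as it was for 14.8% of all genes tested. Over the 7 genes other than Ltf, the mean z-score was 1.39 in aged 47, 0.06 in aged 51, -0.13 in aged 50 and -0.38 in aged 46, against 0.44 in young 37, 0.42 in young 40, -0.47 in young 36 and -1.33 in young 43. Apart from aged 47, the aged tumours thus lay within the range of the young tumours.

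S100a8 and S100a9 encode the subunits of calprotectin, a calcium- and zinc-binding complex that fills the cytosol of neutrophils and acts as a danger signal when released. S100a8 stood at 8.58, 28.1, 8.05 and 8.80 CPM in aged tumours 46, 47, 50 and 51, against 6.38, 17.4, 12.9 and 3.64 CPM in young tumours 36, 37, 40 and 43. Aged 47 was far above every other tumour, while the other 3 aged tumours lay between the low and the high young tumours. S100a9 followed with 10.7, 35.0, 10.97 and 9.76 CPM in aged, against 8.98, 24.6, 19.6 and 5.96 CPM in young tumours. The log2 fold change was 0.41 ± 0.55 (SE) for S100a8 (edgeR adjusted p = 0.93) and 0.16 ± 0.53 for S100a9 (edgeR adjusted p = 0.97). Both values depended on aged 47, as they were -0.21 ± 0.49 and -0.46 ± 0.46 without it.

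The genes are neighbours on chromosome 3 (GRCm38; S100a8, Entrez 20201, 90669071 to 90670034 on the plus strand; S100a9, Entrez 20202, 90692630 to 90695721 on the minus strand), and no exon of any of the 10 neutrophil genes overlapped another gene in GENCODE vM21. Their promoters are shown because their transcripts kept nearly the same order over the 8 tumours, with those of Ltf and Clec4d, whose order differed, for comparison. The 250 bases before each RefSeq start (GRCm38.p6; chr3:90668821-90669070 plus strand, chr3:90695722-90695971 minus strand, chr9:111019042-111019291 plus strand and chr6:123261857-123262106 plus strand) are printed 5′ to 3′ on the gene's strand, with capitals marking matches on either strand to TTNNGNAA, the letters used for C/EBP factors, or GAGGAA, the letters used for PU.1, both myeloid transcription factors.
S100a8: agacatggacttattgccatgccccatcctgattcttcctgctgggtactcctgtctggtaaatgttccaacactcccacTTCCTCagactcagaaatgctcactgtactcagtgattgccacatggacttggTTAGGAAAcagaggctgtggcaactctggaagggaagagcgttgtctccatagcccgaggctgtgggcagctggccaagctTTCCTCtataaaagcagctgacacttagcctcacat
S100a9: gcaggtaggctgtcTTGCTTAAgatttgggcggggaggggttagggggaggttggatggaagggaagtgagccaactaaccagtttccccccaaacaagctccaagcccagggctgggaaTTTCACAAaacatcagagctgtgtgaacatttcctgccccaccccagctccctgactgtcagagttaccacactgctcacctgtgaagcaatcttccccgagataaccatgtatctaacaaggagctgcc
Ltf: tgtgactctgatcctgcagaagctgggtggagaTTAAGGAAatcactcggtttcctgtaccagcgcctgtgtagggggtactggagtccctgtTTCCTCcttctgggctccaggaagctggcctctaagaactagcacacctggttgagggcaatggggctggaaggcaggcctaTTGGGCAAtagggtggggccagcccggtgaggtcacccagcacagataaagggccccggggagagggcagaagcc
Clec4d: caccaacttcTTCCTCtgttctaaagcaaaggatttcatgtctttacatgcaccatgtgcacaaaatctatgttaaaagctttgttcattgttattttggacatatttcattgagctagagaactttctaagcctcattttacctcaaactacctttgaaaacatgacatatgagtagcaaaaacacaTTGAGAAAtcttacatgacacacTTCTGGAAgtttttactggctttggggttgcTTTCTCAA
A C/EBP match was present in 7 of the 10 neutrophil gene promoters and in 36.8% of all 32851 promoters of the table, and a PU.1 match in 5 of the 10 and in 23.3% of all. No base of a member promoter was shared by matches to both. Clec4d held 3 C/EBP matches, S100a9 and Ltf 2 each and S100a8 1. S100a8 alone among the 10 had TATAAA, here 30 bases before its start, as had 7.59% of all promoters on the gene's strand, a search chosen after the sequences were seen.

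Csf3r, Trem1, Il1r2 and Clec4d encode surface receptors. On GRCm38, Csf3r (Entrez 12986) lies on chromosome 4 at 126023441 to 126044975, Trem1 (Entrez 58217) on chromosome 17 at 48232713 to 48246927, Il1r2 (Entrez 16178) on chromosome 1 at 40084692 to 40125230 and Clec4d (Entrez 17474) on chromosome 6 at 123262107 to 123275268, all on the plus strand. Csf3r, the receptor of G-CSF, was the only tested gene with a fitted level lower in aged than in young tumours. It had 12.4, 31.9, 24.8 and 9.66 CPM in aged tumours 46, 47, 50 and 51, against 23.7, 24.5, 32.3 and 15.5 CPM in young tumours 36, 37, 40 and 43. Aged 46 and aged 51 were the lowest of the 8 tumours, and the groups overlapped. The log2 fold change was -0.30 ± 0.36 (edgeR adjusted p = 0.92), and 0.09 ± 0.23 by voom, which weights tumours. It was -0.61 without aged 47 and -0.09 without aged 51.

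Il1r2 encodes the decoy receptor that binds interleukin-1 without signalling. Its levels were 4.95, 18.002, 7.69 and 8.80 CPM in aged tumours, against 4.96, 6.91, 7.83 and 2.02 CPM in young tumours. Aged 47 and aged 51 were above all young tumours, aged 50 was level with young 40, and aged 46 was level with young 36. The log2 fold change was 0.86 ± 0.47 (edgeR adjusted p = 0.92, unadjusted p = 0.10), and 0.42 ± 0.45 without aged 47. Trem1, an activating receptor that amplifies inflammatory signals, had 2.42, 7.64, 2.58 and 3.28 CPM in aged, against 2.88, 4.21, 4.54 and 1.65 CPM in young tumours. Again aged 47 stood alone, and the other aged tumours lay inside the young range. Its log2 fold change of 0.26 ± 0.46 (edgeR adjusted p = 0.95) was -0.23 ± 0.42 without aged 47.

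Clec4d, a C-type lectin that senses molecules of mycobacterial and fungal cell walls, ordered the tumours differently. It stood at 11.95, 26.6, 4.18 and 52.1 CPM in aged tumours 46, 47, 50 and 51, against 10.3, 18.4, 14.1 and 4.48 CPM in young tumours 36, 37, 40 and 43. The highest and the lowest tumour were both aged, and aged 51 had 1575 fragments where aged 50 had 149. The log2 fold change was 1.04 ± 0.71 (edgeR adjusted p = 0.92), and 0.26 ± 0.64 without aged 51. Its partner lectin Clec4e, which lies in the same receptor complex, had 4.83 CPM in aged 51 and 8.69 CPM in aged 47, and thus did not share the peak in aged 51.

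Retnlg (Entrez 245195, chromosome 16, 48872608 to 48874498, plus strand) encodes a resistin-like protein secreted by neutrophils and had the lowest p of the 8. It stood at 0.681, 1.93, 1.96 and 0.993 CPM in aged tumours 46, 47, 50 and 51, against 0.243, 0.628, 0.866 and 0.476 CPM in young tumours 36, 37, 40 and 43. Only aged 46 lay below a young tumour, young 40. The means were 1.39 ± 0.655 CPM in aged, against 0.553 ± 0.262 CPM in young tumours (± SD over 4 tumours), and the log2 fold change was 1.33 ± 0.48 (edgeR unadjusted p = 0.022, adjusted p = 0.92). These values rest on few fragments, 22 to 70 in aged and 7 to 25 in young tumours. The fold change stayed above 0 under all 15 alternatives, from 0.90 to 1.84, and adjusted p was 0.18 to 0.997 among them, by edgeR, DESeq2 and voom. It was the 1 gene of the 8 whose groups did not overlap once CPM were divided by those of the leukocyte gene Ptprc, a scale chosen after seeing the data on which 3.2% of all genes did not overlap (3.14% higher in aged tumours).

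**Figure D2:**
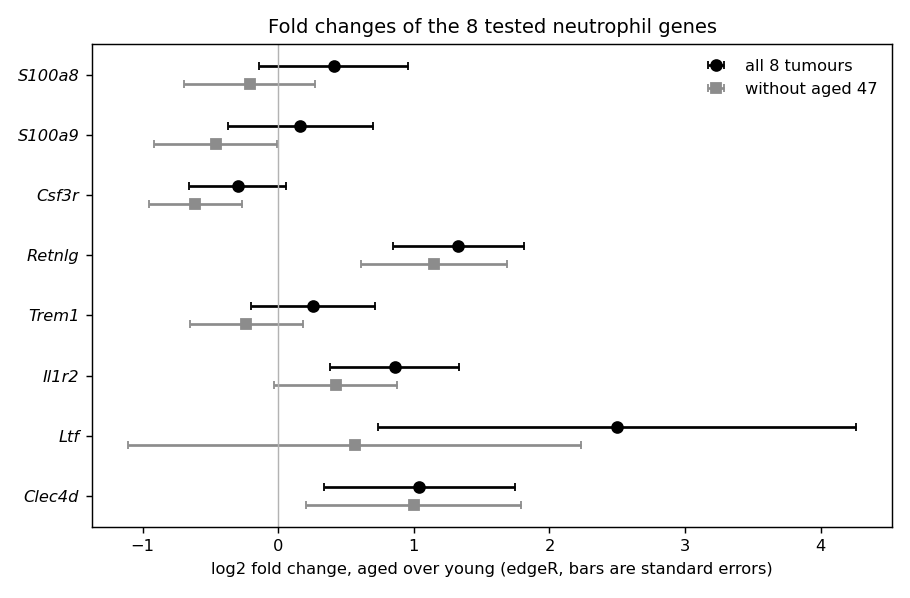
Log2 fold change of aged over young tumours for the 8 tested neutrophil genes, with standard errors, from edgeR on all 8 tumours (black) and without aged 47 (grey). Without aged 47 the values of S100a8, S100a9 and Trem1 lay below 0, while Retnlg (1.15) and Clec4d (1.00) moved little.

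Ltf, Ngp and Camp encode proteins of the specific granules, lactoferrin, a cathelicidin-like protein and the cathelicidin peptide precursor, and they did not follow each other. All 3 lie on chromosome 9, Ltf (Entrez 17002) at 111019292 to 111042766 and Ngp (Entrez 18054) at 110419808 to 110423012 on the plus strand, and Camp (Entrez 12796) at 109847377 to 109849456 on the minus strand. Ltf had 406, 2265, 161 and 2 fragments in aged tumours 46, 47, 50 and 51, which is 12.6, 74.3, 4.52 and 0.0662 CPM, against 279, 149, 8 and 1 fragments in young tumours 36, 37, 40 and 43, or 9.67, 5.51, 0.277 and 0.0280 CPM. Each age thus held both tumours with abundant Ltf and tumours at or near the detection limit. The log2 fold change of 2.50 ± 1.76 (edgeR adjusted p = 0.92) had the widest error of the 8, and without aged 47 it was 0.57 ± 1.67. Ngp had 1, 3, 15 and 3 fragments in aged and 2, 1, 0 and 0 in young tumours. Camp had 1, 3, 9 and 1 fragments in aged and 1, 2, 3 and 1 in young tumours. Both were left out of the test by the filter on low counts. Without that filter, the log2 fold change was 2.46 ± 1.09 for Ngp (edgeR unadjusted p = 0.047, adjusted p = 0.86) and 0.76 ± 0.81 for Camp (edgeR adjusted p = 0.89). Fitted values at such counts depend on the prior count. Aged 50 was the one tumour with more than 3 fragments of either, with exact 95% Poisson intervals of 8.39 to 24.7 fragments for Ngp and 4.12 to 17.1 for Camp.

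Aged 47, with its 2265 fragments of Ltf, had 3 of Ngp and 3 of Camp. Ltf was compared with other epithelial transcripts, since glands make it as well. The 10 genes of prostate and seminal vesicle secretion summed to 60.3, 52.5, 26053 and 143 CPM in aged tumours 46, 47, 50 and 51, against 35222, 11126, 20.4 and 4.00 CPM in young tumours 36, 37, 40 and 43. Aged 47 and aged 46, the tumours highest in Ltf (74.3 and 12.6 CPM), were low in these genes. Young 36, aged 50 and young 37, the tumours highest in these genes, had 9.67, 4.52 and 5.51 CPM of Ltf. Aged 51, young 40 and young 43 had 0.0662, 0.277 and 0.0280 CPM of Ltf. The 4 epithelial genes Krt8, Krt18, Epcam and Cdh1 summed to 113, 218, 446 and 63.4 CPM in aged, against 234, 278, 104 and 38.0 CPM in young tumours, so the tumours lowest in Ltf, young 43 and aged 51, were also lowest in these. The 7 genes of stratified epithelium summed to 139 CPM in aged 47, 13.9 to 109 CPM in the other aged tumours and 24.6 to 109 CPM in young tumours. The part of epithelium in the Ltf values was not tested.

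Other granule genes had higher fitted levels in aged tumours for 7 of 8 tested, with a median log2 fold change of 1.03. None passed by edgeR, and 4 had an unadjusted p below 0.05, where 4.99% of all genes did. Mmp8, the neutrophil collagenase, had 3.03, 18.4, 7.04 and 3.37 CPM in aged tumours, against 2.81, 1.63, 2.60 and 2.18 CPM in young tumours, with aged 47 far above the others (log2 fold change 1.76 ± 0.55, edgeR adjusted p = 0.92). Cd177, a neutrophil adhesion molecule, had 0.820 ± 0.542 CPM in aged, against 0.340 ± 0.104 CPM in young tumours (± SD over 4 tumours; log2 fold change 1.25 ± 0.53, edgeR adjusted p = 0.92). Chil3, a chitinase-like protein that macrophages also make and whose reads may be shared with close paralogs, had a log2 fold change of 1.93 ± 0.42, and Mmp9, a gelatinase made by macrophages and stroma as well, had -1.87 ± 0.39. The groups did not overlap for Mmp8 and Chil3, both higher in aged tumours, as they did not for 3.4% of all genes tested (1.45% higher in aged tumours). Chil3 and Mmp9 had an edgeR adjusted p of 0.77, and DESeq2 called both (adjusted p = 0.0046 and 0.0012), where it called 0.295% of all genes. The genes highest in level were Hp, encoding haptoglobin, with 0.44 ± 0.79, Adam8, a metalloprotease, with 0.32 ± 0.42, and Mmp9. Of the azurophil granule genes only Prtn3, encoding proteinase 3, was tested, with 0.63 ± 0.59.

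Further genes of neutrophil identity were tested for 11 of 17 in the files, with 7 fold changes above 0, a median of 0.41 and 0 past the edgeR threshold. Cxcr2, the receptor for neutrophil-attracting chemokines, had 36.9, 31.4, 20.8 and 35.6 CPM in aged tumours, against 13.6, 26.1, 19.6 and 14.1 CPM in young tumours. Aged 50 alone lay below a young tumour, young 37, and the log2 fold change was 0.79 ± 0.27 (edgeR unadjusted p = 0.016, adjusted p = 0.92). Lrg1, a secreted glycoprotein stored in neutrophil granules, had 0.68 ± 0.44 and Slfn4, a myeloid gene induced by interferon, -0.58 ± 0.47. Of the transcription factors of granulocyte development, 5 of 6 were tested, and 4 had fold changes below 0. Cebpb was the 1 below an edgeR unadjusted p of 0.05, where 4.99% of all genes lay (-0.49 ± 0.16, edgeR adjusted p = 0.92). Spi1, which encodes PU.1, had -0.49 ± 0.27 and Cebpa -0.20 ± 0.24.

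Some chemokines that draw neutrophils ordered the tumours much as the neutrophil genes did. When all other tested genes were ranked by their Pearson correlation over the 8 tumours with the mean z-score of the 7 genes, the first 10 held the CXCR2 ligands Cxcl1 (r = 0.90, rho = 0.98) and Cxcl2 (r = 0.90, rho = 0.76) and the lectin Clec4e (r = 0.89, rho = 0.93). The others were Pfn2 (r = 0.96), 1700018L02Rik, F630028O10Rik, Gja5, Ccdc148, Tmem88 and Epha4 (r = 0.88 to 0.91). These values describe genes picked for their likeness, and all points share the library scaling. Without the 2 tumours farthest from the median, aged 47 and young 43, r was 0.96 for Cxcl1, 0.70 for Cxcl2 and 0.75 for Clec4e over 6 tumours. Cxcl1 stood at 8.33, 12.1, 9.54 and 10.5 CPM in aged tumours 46, 47, 50 and 51, against 7.87, 12.05, 11.7 and 5.85 CPM in young tumours 36, 37, 40 and 43. Cxcl2 stood at 0.403, 3.18, 0.421 and 0.331 CPM in aged, against 0.451, 2.88, 0.832 and 0.0840 CPM in young tumours, so that aged 47 and young 37 were apart from the rest.

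**Figure D3:**
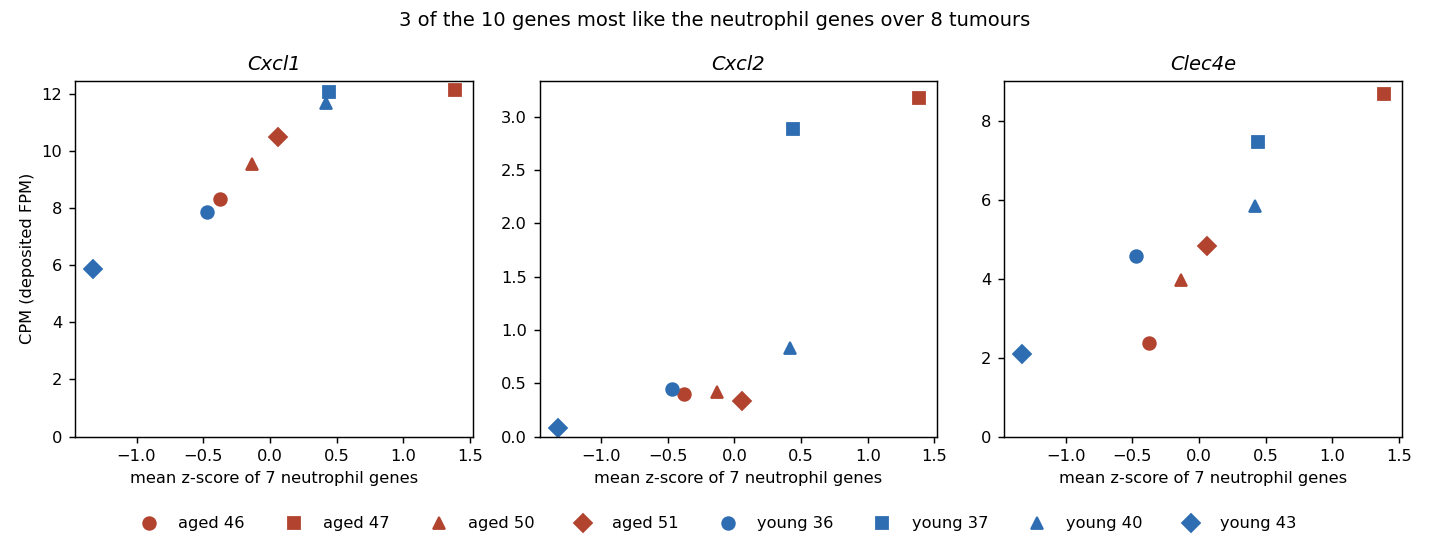
CPM of Cxcl1, Cxcl2 and Clec4e against the mean z-score of the 7 tested neutrophil genes other than Ltf, 1 point per tumour, aged in red and young in blue. Aged 47 is at the right and young 43 at the left of each panel, and the remaining 6 tumours of both ages are interleaved between them.

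Of the 10 attractants and growth factors, 6 were tested and 0 passed or had an unadjusted p below 0.05. The log2 fold change was 0.12 ± 0.25 for Cxcl1, 0.01 ± 1.04 for Cxcl2, -0.19 ± 0.39 for Cxcl5 and 0.86 ± 0.50 for Csf3, which encodes G-CSF. Il17a, a cytokine that induces several of them, had 0 fragments in all 8 tumours. Ppbp and Cxcl3, further CXCR2 ligands chosen after their values were seen, also peaked in aged 47. Ppbp had 9.15 CPM in aged 47 and 0.252 to 0.805 CPM in the other aged tumours, against 0.208 to 1.96 CPM in young tumours. Cxcl3 had 6.92 CPM in aged 47 and at most 0.217 CPM in the other aged tumours, against 2.18 CPM in young 37 and at most 0.277 CPM in the other young tumours.

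The signalling partners of the receptors mostly had fitted levels lower in aged tumours. Of 14 adaptors, ligands and co-receptors, 13 were tested, 11 had fold changes below 0, the median was -0.31, and 0 passed by edgeR. The adaptor genes Tyrobp, which couples TREM1, and Fcer1g, which couples CLEC4D, had -0.36 ± 0.26 and -0.39 ± 0.31, and the transcription factor gene Stat3, which acts below the G-CSF receptor, had -0.03 ± 0.12. Ager, a receptor proposed for calprotectin, was the 1 below an edgeR unadjusted p of 0.05, where 4.99% of all genes lay (1.61 ± 0.71, edgeR adjusted p = 0.92). Ager had 5.10 CPM in aged 51 and 0.787 to 1.01 CPM in the other aged tumours. Il1b, the ligand that IL1R2 traps, was chosen after its values were seen. It had 4.21, 13.6, 8.70 and 1.75 CPM in aged tumours, against 21.4, 17.2, 35.2 and 5.01 CPM in young tumours, with overlap and a log2 fold change of -1.49 ± 0.66 (edgeR adjusted p = 0.92). Of the genes of immunosuppressive myeloid cells, 9 were tested with a median of 0.02 and 0 below an unadjusted p of 0.05, among them Cybb (-0.24 ± 0.31), Tgfb1 (-0.28 ± 0.17) and Cd84 (0.03 ± 0.19).

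**Figure D4:**
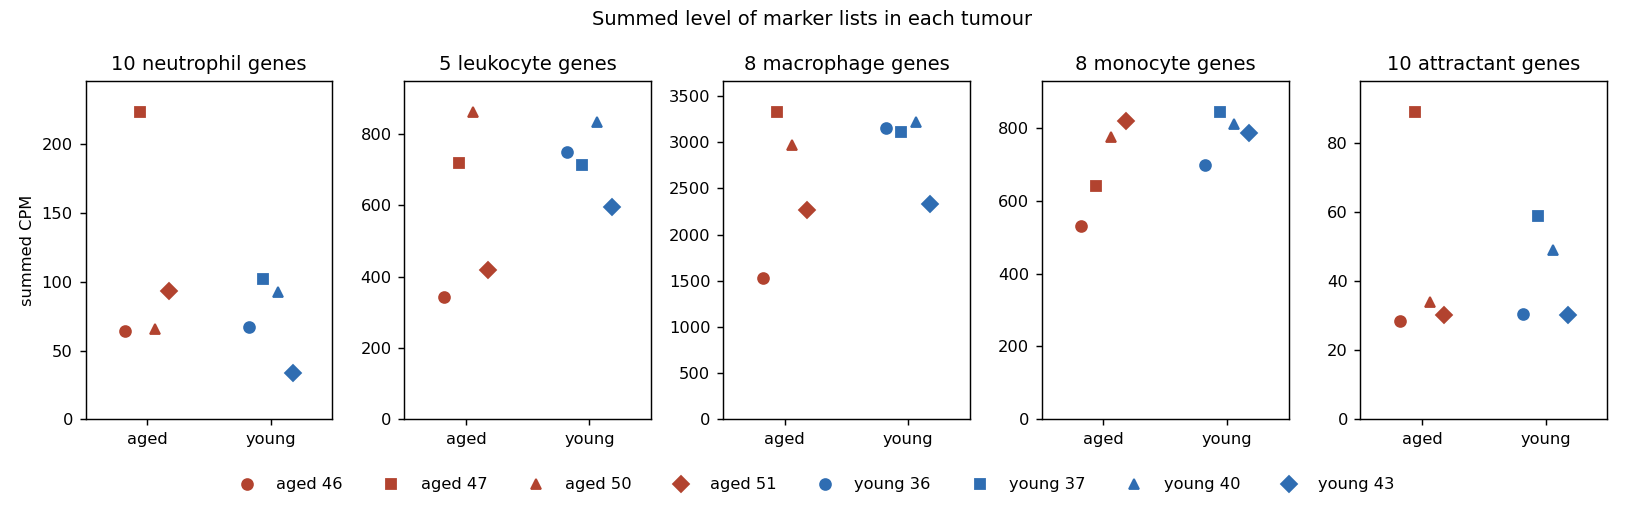
Summed CPM of the 10 neutrophil genes and of the leukocyte, macrophage, monocyte and attractant lists, 1 point per tumour, with aged tumours left of young tumours. Aged 47 led the sums of the neutrophil genes (224 CPM), the attractants (88.9 CPM) and the macrophage genes (3330 CPM, mostly C1qa, C1qb and C1qc). It did not lead the leukocyte or monocyte genes, and aged 46 and aged 51 were lowest in the leukocyte genes.

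Other leukocyte genes varied between tumours too. The 5 pan-leukocyte genes, led in level by Laptm5, Coro1a and Cd53, summed to 342, 718, 862 and 419 CPM in aged tumours 46, 47, 50 and 51, against 751, 713, 833 and 594 CPM in young tumours 36, 37, 40 and 43. All 5 had fold changes below 0 (median -0.34; Laptm5 -0.34 ± 0.21, Coro1a -0.36 ± 0.41, Cd53 -0.15 ± 0.23), and 0 passed. The 8 macrophage genes summed to 1529 to 3330 CPM in aged, against 2327 to 3225 CPM in young tumours. Aged 47 was highest in that sum, most of which was C1qa, C1qb and C1qc (865, 869 and 701 CPM). Csf1r and Adgre1 were highest in young 40, Cd68 in young 37, and Mrc1 and Mertk in aged 51. The median fold change of the macrophage genes was -0.24, with C1qa, C1qb and C1qc at -0.25 to -0.23. Of the 8, 2 lay below an edgeR unadjusted p of 0.05, where 4.99% of all genes did. These 2 went in opposite directions (Cd68 -0.51 ± 0.21, Mertk 0.68 ± 0.24). The 8 monocyte genes summed to 531 to 819 CPM in aged, against 697 to 844 CPM in young tumours. Much of this sum was Vcan, with 308 to 580 CPM in aged, against 398 to 639 CPM in young tumours. Aged 51, highest of the aged tumours in the sum, had 580 CPM of Vcan but the lowest Ccr2 of the 8 tumours (10.9 CPM). The median fold change of the monocyte genes was -0.37, with F13a1 at 1.03 ± 0.41, Vcan at -0.32 ± 0.25 and Ccr2 at -0.35 ± 0.63. F13a1 alone of the 8 monocyte genes lay below an edgeR unadjusted p of 0.05, where 4.99% of all genes did. None of these 3 lists had a gene past the edgeR threshold. Aged 46 and aged 51, lowest in leukocyte genes, were also lowest in Csf3r. The part of monocytes and macrophages in the neutrophil gene values was not tested.

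The remaining lists had 0 genes past the edgeR threshold, and their log2 fold changes are given in parentheses. Eosinophil genes summed to 0.562 to 4.12 CPM in aged, against 1.79 to 2.36 CPM in young tumours (Siglecf 0.27 ± 0.75, Il5ra 0.88 ± 0.49, Ccr3 -1.04 ± 0.49). Mast cell and basophil genes summed to 4.83 to 13.4 CPM in aged, against 3.50 to 11.5 CPM in young tumours (Mcpt8 -0.03 ± 0.66, Cma1 0.29 ± 0.99, Tpsb2 0.47 ± 0.76). T cell genes summed to 12.1 to 72.7 CPM in aged, against 12.9 to 48.9 CPM in young tumours, with a median fold change of 0.44 (Cd4 -0.25 ± 0.53, Cd3g 0.48 ± 0.65, Cd3d 0.23 ± 0.68). B cell genes summed to 2.26 to 20.8 CPM in aged, against 4.42 to 14.5 CPM in young tumours, with a median of 0.77 (Cd79b -0.05 ± 0.52, Cd79a 0.56 ± 0.78, Ms4a1 0.99 ± 0.99). Red blood cell genes, which show the blood left in a tumour, summed to 61.1 to 122 CPM in aged, against 45.8 to 85.3 CPM in young tumours (Hba-a2 0.07 ± 0.30, Hbb-bs 0.40 ± 0.32, Alas2 0.67 ± 0.36). Aged 47 had 71.4 CPM of them. The part of blood in the neutrophil gene values was not tested. Reads of haemoglobin genes may be shared with their near-identical copies. The epithelial list had a median of 0.63 (Krt8 -0.34 ± 0.56, Krt18 0.83 ± 0.88, Cdh1 0.60 ± 0.79) and the stratified epithelium list 0.76 (Sprr1a 0.37 ± 0.71, Krt5 0.82 ± 1.05, Krt10 0.12 ± 0.23). The secretory gland list had a median of 0.33, with wide errors (Pbsn 1.83 ± 2.15, Sbp -8.17 ± 3.34, Spink1 -8.86 ± 3.10). Sbp and Spink1 were the 2 below an edgeR unadjusted p of 0.05, where 4.99% of all genes lay. Both were highest in young 37, with 7523 and 3580 CPM.

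The genes most like Ltf over the 8 tumours were Romo1 (r = 0.96), 2010320M18Rik, 1700096K18Rik, Cd151 and Fibp (r = 0.94 to 0.95). The neutrophil genes were left out of this ranking. No gland gene was among the 5, but so short a list drawn from all tested genes cannot show whether gland genes follow Ltf. The 5 varied far less than Ltf, as Romo1 ranged over 34.5 to 51.6 CPM in aged, against 33.03 to 46.9 CPM in young tumours. These are again genes picked for likeness, and without young 43 and aged 51 the 5 had r = 0.84 to 0.92 over 6 tumours.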

How the data were processed

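RNA of 4 aged and 4 young tumours was compared. The authors deposited fragment counts per Entrez gene, FPM values, which are CPM, and FPKM values. Per the submitters' processing notes, reads were handled with bcl2fastq, TopHat2 2.0.12 and Picard 2.7.1 on GRCm38 (mm10). The counter, the annotation and whether strand was used is information not given in the sources used here, although the design text names a stranded kit. The deposited CPM equal the counts over their total, and the deposited FPKM that CPM over the transcript length of the table, to within 1e-05 in every tumour.

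The deposited counts were tested with edgeR 4.0.16 (R 4.3.3). filterByExpr (minimum count 10, total 15) kept 14575 genes. TMM factors scaled the libraries, and the quasi-likelihood fit was robust with 1 term, the age of the host. Fold changes are aged over young, and adjusted p-values are Benjamini-Hochberg over all genes tested. DESeq2 1.42.0, limma 3.58.1 (voom), other scalings and filters and omitted tumours were alternatives. z-scores used log2 CPM with a prior count of 2. Wilson intervals came from scipy 1.17.1. 27 symbols turned into dates were restored from RefSeq, and promoters are from RefSeq (GRCm38.p6).

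The members and the 18 other lists (140 genes, 137 in the files, 112 tested) were chosen with earlier results of these data known. All members are named, with the 3 highest genes by median CPM of each other list and those with an unadjusted p below 0.05, and the genes most like the members (10) and Ltf (5). 1 gene that this rule names is not reported here. The labels give each tumour its own mouse, so p-values measure the spread between mice.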

Additional observations from a re-analysis of the deposited data

Results flagged for a closer look

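4 values stood apart within their group of 4, with a gap to the next tumour, as a share of the group's range, above Dixon's critical value, and all 4 were the highest value of aged 47. S100a8 was at 28.1 CPM in aged 47, where the other aged tumours had 8.05 to 8.80 CPM. S100a9 was at 35.0 CPM, where they had 9.76 to 10.97 CPM. Trem1 was at 7.64 CPM, where they had 2.42 to 3.28 CPM. Ltf was at 74.3 CPM, where they had 0.0662 to 12.6 CPM. 20 groups were examined, and chance gives about 1 in 20 if values are normally distributed and groups independent. The gaps were taken on CPM, not on log2 CPM, and CPM can be skewed. The 4 flags share aged 47 and so are not independent, least of all S100a8 and S100a9.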

How the results depend on the processing

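0 of the 8 tested genes passed an adjusted p of 0.05 under each of the 15 alternatives. Leaving out 1 tumour moved the median log2 fold change of the 8 to between 0.11 and 0.91, and the count with an unadjusted p below 0.05 to between 0 and 1 (0 without aged 47, young 36 or young 43, and without aged 50 the 1 gene was Clec4d, not Retnlg). That count was 0 without aged 50 and young 36, and 2 with voom. The count of genes with groups that did not overlap was between 0 and 1 when 1 tumour was left out, 0 with TMM-scaled CPM, and 1 (Retnlg) with CPM divided by that of Ptprc, chosen after seeing the data. For tumours left out, the shares of all genes were not computed for either count, and groups separate more easily with fewer tumours. Of the 112 tested genes of the other lists, DESeq2 called 2 (Chil3 and Mmp9), against 0.295% of all genes, and the other 14 alternatives called 0. Directions changed without aged 47 for S100a8 (-0.21), S100a9 (-0.46) and Trem1 (-0.23), for S100a9 also without young 43 (-0.10) or young 36 (-0.0012), and with voom for Csf3r (0.093), and the causes were not tested. Leaving out 1 tumour gave ranges of -0.21 to 0.82 for S100a8, -0.46 to 0.53 for S100a9, -0.23 to 0.43 for Trem1 and -0.61 to -0.09 for Csf3r. Retnlg, Il1r2, Ltf and Clec4d kept their direction in all 15. No paired analysis was possible because the groups share no mouse number. Ngp and Camp, with 0 to 15 fragments, were fitted only without the filter on low counts, where neither passed and Ngp had an unadjusted p of 0.047 (edgeR adjusted p = 0.86).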

Other observations

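The values here were chosen after the data were seen and carry no test. S100a8 took 44.5%, 44.5%, 42.3% and 47.4% of the fragments of the calprotectin pair in aged tumours 46, 47, 50 and 51, against 41.5%, 41.4%, 39.6% and 37.9% in young tumours 36, 37, 40 and 43. The groups did not overlap. How often shares of other gene pairs do not overlap was not computed, and the 3.4% of all tested genes in CPM is for single genes. The 95% Wilson interval of aged 51 (43.3% to 51.6%) lay above those of young 40 (36.5% to 42.8%) and young 43 (32.9% to 43.1%). The intervals of every other pair of an aged and a young tumour overlapped, and they cover counting error only.

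Relative to the pan-leukocyte gene Ptprc, Retnlg had 1.79 ± 0.289 fragments per 100 Ptprc fragments in aged tumours (1.39 to 2.02) and 0.527 ± 0.226 in young tumours (0.204 to 0.719; SD, n = 4 each). The groups did not overlap on this scale, as was so, with aged tumours higher, for 3.14% of all genes tested. Il1r2 had 13.7 ± 6.05 per 100 in aged and 5.03 ± 2.36 in young tumours, with overlap. Ngp, which was not tested, had 0.0802 to 0.299 per 100 in aged and at most 0.0582 in young tumours, from 1 to 15 fragments per aged tumour and 0 to 2 per young tumour. Ptprc itself stood at 38.6, 97.0, 141 and 49.2 CPM in aged tumours 46, 47, 50 and 51, against 119, 87.3, 138 and 85.6 CPM in young tumours 36, 37, 40 and 43, and a low Ptprc raises the ratio of every gene in aged 46 and aged 51.

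Olfm4, which encodes a granule protein of a subset of neutrophils and also a protein of gut epithelium, had 115 fragments in aged 50, the tumour with most Ngp and Camp, and 2, 23 and 2 in aged 46, 47 and 51, against 1, 3, 1 and 0 in young tumours 36, 37, 40 and 43.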
